A study of Homo sapiens with 9 samples.

Results

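Knockdown of Cyclin K by siCyclin K#1 was compared directly with knockdown by siCyclin K#2 in A549 cells, a human lung adenocarcinoma line. The members are the 6 libraries that the sample titles assign to either small interfering RNA (siRNA), 3 for siCyclin K#1 and 3 for siCyclin K#2, out of 9 libraries in the series. The other 3 libraries come from cells given a scrambled siRNA, and their levels are given beside the comparison. All cells belong to the same line, carry no other engineered change in the labels, and were harvested 48 h after transfection for total RNA. The labels and the study's methods name different culture media. Nothing states that the 3 libraries of a group came from separate cultures, so the p-values measure the spread between these libraries, which may be technical. The question was which genes and pathways tell the 2 knockdowns apart, given that both siRNAs are directed against the same mRNA.

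Cyclin K is the regulatory partner of the kinases CDK12 and CDK13, which phosphorylate the tail of RNA polymerase II during elongation, and loss of this activity is known to lower long genes and genes of the DNA damage response. An siRNA is loaded into an Argonaute protein, and its guide strand cuts the mRNA to which it is fully complementary. A guide can also lower other mRNAs to some extent when its seed, the bases at positions 2 to 8, pairs with their 3′ untranslated region (UTR), as a microRNA does. Different siRNAs against the same mRNA share the intended target and have different seeds.

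Both targets lie in the coding region of CCNK (ENSG00000090061, GRCh38 chromosome 14, plus strand, 99481169 to 99535044), in transcript CCNK-201 of GENCODE 29. They are printed 5′ to 3′ as the transcript reads, since every later comparison turns on which bases each guide recognises. The capitals mark the 7 bases that pair with the guide's seed, on the assumption that the guide starts opposite the last base shown.

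siCyclin K#1 target: aagcaactcaaagGTGATAAa

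siCyclin K#2 target: caagtttgattTACAGGTa

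The siCyclin K#1 target covers nucleotides 628 to 648 and crosses from exon 5 into exon 6, and the siCyclin K#2 target covers nucleotides 576 to 594 within exon 5. The matches to the seeds are GTGATAA for siCyclin K#1 and TACAGGT for siCyclin K#2. Of 2370 mature human microRNAs from RefSeq, 0 have the seed of siCyclin K#1 and 0 that of siCyclin K#2 at positions 2 to 8.

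The values are FPKM, a fragment count corrected for gene length and for library size. From the steps between low values, the libraries held about 31333749 to 33767961 reads each, and the ranges of the groups overlapped. Of the epithelial markers, KRT8 stood at 49.7 to 105 FPKM and KRT18 at 69.8 to 91.0 over the 9 libraries, while EPCAM, NKX2-1, NAPSA and SFTPB stayed at or below 0.279, so that of these 6 markers of lung epithelium the keratins were the ones clearly present. In a longer list of alveolar and lung epithelial genes CAV1 (66.2 to 94.5 FPKM as group means), MUC5AC (10.4 to 14.1), ABCA3 (6.21 to 10.96) and FOXA1 (1.53 to 4.82) were present too. Of 3 leukocyte markers, PTPRC and LYZ were below 0.1 FPKM in every library and CD14 reached 1.02. In a longer leukocyte list CD68, a lysosomal protein, stood at 30.3, 32.2 and 37.9 FPKM on average with scrambled siRNA, siCyclin K#1 and siCyclin K#2, and the integrin gene ITGAM at 0.801, 2.23 and 0.828 (difference 1.32, limma adjusted p = 7.0e-04), and their part in the results was not tested. Of 4 endothelial markers, PECAM1, CDH5 and VWF were below 0.1 and KDR reached 0.254. Replicate libraries differed from each other by a median of 0.0907 to 0.101 on the log2 scale over 11265 genes with a mean of at least 1 FPKM. A siCyclin K#1 library differed from a siCyclin K#2 library by 0.271 to 0.289. The same measure against scrambled siRNA was 0.420 to 0.446 for siCyclin K#1 and 0.330 to 0.342 for siCyclin K#2.

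CCNK was far below the scrambled level with either siRNA, and the direct comparison detected no difference between them. It stood at 6.90, 7.06 and 7.10 FPKM with scrambled siRNA, at 0.891, 0.816 and 0.720 with siCyclin K#1, and at 0.809, 0.920 and 0.802 with siCyclin K#2. The 3 and 3 values overlapped, and the difference between the siRNAs on the log2(FPKM + 0.1) scale was -0.06 (SE 0.10, limma adjusted p = 0.726), with a 95% interval that reaches 0.22 to either side of it. An exact two-sided permutation test of the FPKM gave p = 0.7, where 3 against 3 cannot give less than 0.1. Leaving out the third siCyclin K#1 library or the second siCyclin K#2 library turned the sign of this small difference (0.02 and 0.0012). Of 18 transcriptional kinases, cyclins and their regulators 1 was higher and 2 lower with siCyclin K#1 at an adjusted p under 0.05. HEXIM1, an inhibitor of the CDK9 complex, had 93.5 ± 2.65 FPKM (SD, n = 3) with siCyclin K#1 against 40.9 ± 23.6 with siCyclin K#2, where the second library (68.0) stood apart from the others (27.6 and 26.9). Its difference was 1.33 with that library and 1.77 without it. CCNQ (difference -0.73) and CCNT1 (-0.23) were lower, each without overlap of the libraries.

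Across the transcriptome the knockdowns differed widely, and mostly by small amounts. A log2 difference is given throughout as siCyclin K#1 minus siCyclin K#2 on the scale of log2(FPKM + 0.1), where weakly expressed genes appear to change less than they do. Of 21048 genes tested, 6191 had an adjusted p under 0.05, 3600 higher (17.1% of the genes tested) and 2591 lower (12.3%) with siCyclin K#1. The median fold of these genes was 1.44. Weakly expressed genes passed less often (470 of 6190 under 0.3 FPKM). Over 9229 genes with a mean of at least 1 FPKM and an annotated 3′ UTR, 25.7% were higher and 21.6% lower. At a fold over 3 with an unadjusted p under 0.01, the threshold in the study's methods, 322 of the 21048 genes were called (1.53%). They were 204 higher (0.969% of the genes tested) and 118 lower (0.561%) with siCyclin K#1. The share that was higher rested on weakly expressed genes and on the scaling. Of the 122 called genes with a mean of at least 1 FPKM, 60 were higher and 62 lower, and after quantile normalization the split of all called genes was 143 higher and 158 lower. Of the 322 genes, 317 had no overlap between the 3 and 3 libraries, which the threshold itself makes likely. No share over all genes tested is given beside this count, so it adds no support to the calls. Of the 322, 105 had at most 3 reads in every library of the lower group, where the fold depends on the added constant. The plot of difference against level sets CCNK on the zero line, with the called genes far above and below it.

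**Figure D1:**
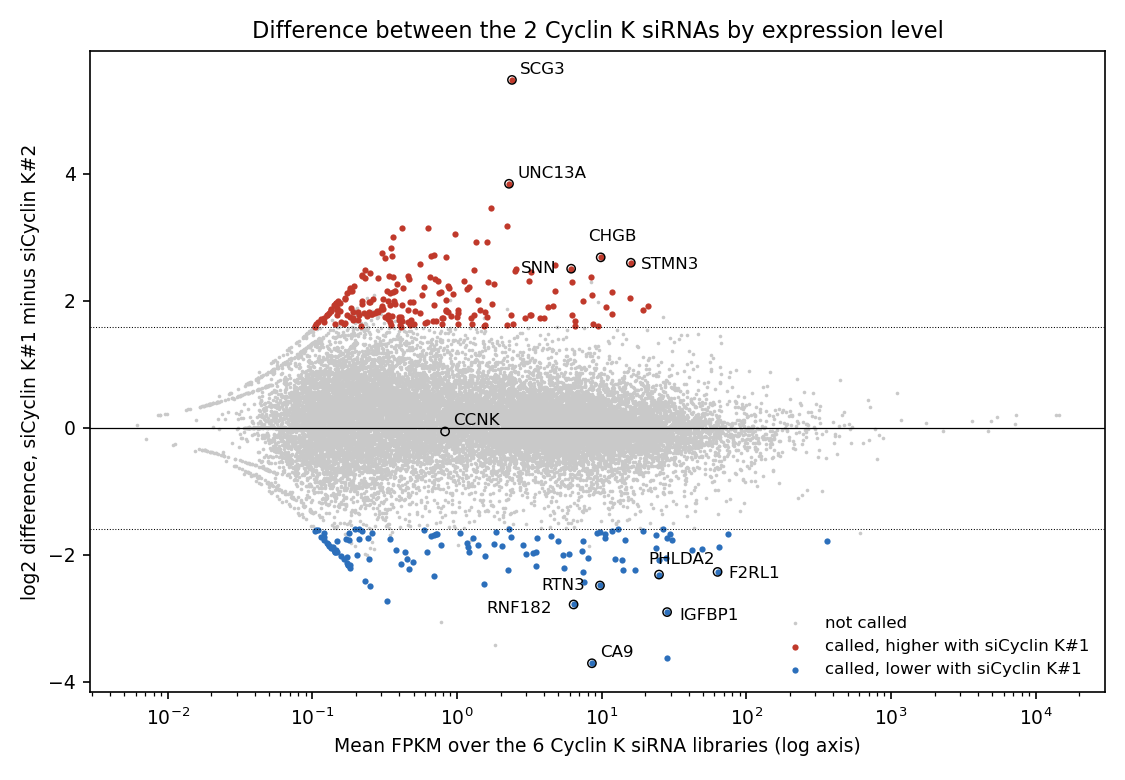
Each point is a gene, with its mean FPKM over the 6 Cyclin K siRNA libraries on a log axis and its log2 difference (siCyclin K#1 minus siCyclin K#2) on the vertical axis. Red points are the 204 called genes that were higher and blue points the 118 that were lower with siCyclin K#1, dotted lines mark a fold of 3, circles mark named genes, and CCNK lies at -0.06.

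The 12 genes named for the largest rise with siCyclin K#1 included SCG3, UNC13A, CHGB, VGF, STMN3 and CHRNB2, which are known from nerve or endocrine cells. SCG3 (chromosome 15, 51681353 to 51721031), which encodes secretogranin III of dense-core secretory granules, stood at 4.20, 5.42 and 4.72 FPKM with siCyclin K#1. With siCyclin K#2 it was listed at 0, 0 and 0.0284, and with scrambled siRNA at 0.107, 0.114 and 0.158. The groups were far apart, at 1530 reads over the 3 siCyclin K#1 libraries and 3 reads over the 3 siCyclin K#2 libraries. That is a ratio of 513 per total reads, with an exact 95% interval from 175 to 2490 that covers counting error only. The fitted difference of SCG3 depends on the added constant and was 5.48 with 0.1 and 2.51 with 1 (adjusted p = 4.3e-07 with 0.1).

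UNC13A, which primes synaptic vesicles for release, had 4.29, 4.54 and 4.24 FPKM with siCyclin K#1 against 0.252, 0.261 and 0.134 (difference 3.85, SE 0.19, adjusted p = 2.3e-06). CHGB, the granule protein chromogranin B, had 22.6, 15.8 and 12.9 FPKM against 3.24, 2.74 and 1.75 (difference 2.69, SE 0.25, adjusted p = 7.8e-05). VGF, a neuropeptide precursor, had 10.6, 6.28 and 7.94 against 1.21, 1.15 and 1.53 (difference 2.56, SE 0.18, adjusted p = 1.9e-05). In each of these genes the lowest siCyclin K#1 library was above the highest siCyclin K#2 library, as the choice of the 12 genes required. The siCyclin K#2 libraries were below the scrambled mean of 0.458 FPKM for UNC13A, on both sides of 2.16 for CHGB, and above 0.834 for VGF.

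STMN3, a microtubule-destabilising protein of neurons, had the highest FPKM of the 12 genes with the largest difference, at 25.8, 28.1 and 28.2 FPKM against 4.48, 4.63 and 4.15 (difference 2.60, SE 0.08, adjusted p = 2.4e-07). CHRNB2, a subunit of nicotinic acetylcholine receptors, had 2.85, 3.20 and 2.68 against 0.327, 0.378 and 0.197 (difference 2.93). MAPK8IP2, a scaffold of the JNK kinase pathway in neurons, had 2.32, 2.50 and 2.62 against 0.174, 0.332 and 0.223 (difference 2.94). For STMN3, CHRNB2 and MAPK8IP2 the siCyclin K#2 libraries lay close to the scrambled means of 4.78, 0.234 and 0.188.

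FLRT3, a cell adhesion protein that guides axons, had 4.08, 4.23 and 3.90 FPKM against 0.417, 0.420 and 0.266 (difference 3.18, SE 0.20, adjusted p = 8.0e-06). ZNF467, a zinc finger protein, had 3.39, 3.37 and 2.72 against 0.0228, 0.264 and 0.459 (difference 3.47, SE 0.49, adjusted p = 8.4e-04), the widest spread of the 12. TMEM198, a membrane protein linked to Wnt receptors, had 4.65, 3.26 and 5.34 against 0.833, 0.666 and 0.560 (difference 2.51). SNN, the small membrane protein stannin, had 9.88, 11.5 and 10.2 against 1.72, 1.72 and 1.86, on either side of a scrambled mean of 5.16 (difference 2.51).

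LUM, which encodes the matrix proteoglycan lumican and is also a marker of fibroblasts, completed the 12, at 1.61, 2.54 and 2.70 FPKM against 0.2999, 0.340 and 0.313 (difference 2.48, SE 0.20, adjusted p = 3.7e-05). Of 5 fibroblast markers, COL1A1 was higher too (14.0 ± 0.572 against 3.19 ± 0.0999, SD, n = 3), while COL3A1, DCN and PDGFRB stayed at or below 0.136 FPKM in every library. Their summed level was 15.5 to 17.4 FPKM with siCyclin K#1, 3.55 to 3.74 with siCyclin K#2 and 2.29 to 2.72 with scrambled siRNA. COL3A1 did not exceed 0.0227 FPKM. In a longer fibroblast list PDGFRA stood at 3.52, 4.64 and 4.22 FPKM on average with scrambled siRNA, siCyclin K#1 and siCyclin K#2 (difference 0.13). Any part of fibroblasts in the result was not tested.

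**Figure D2:**
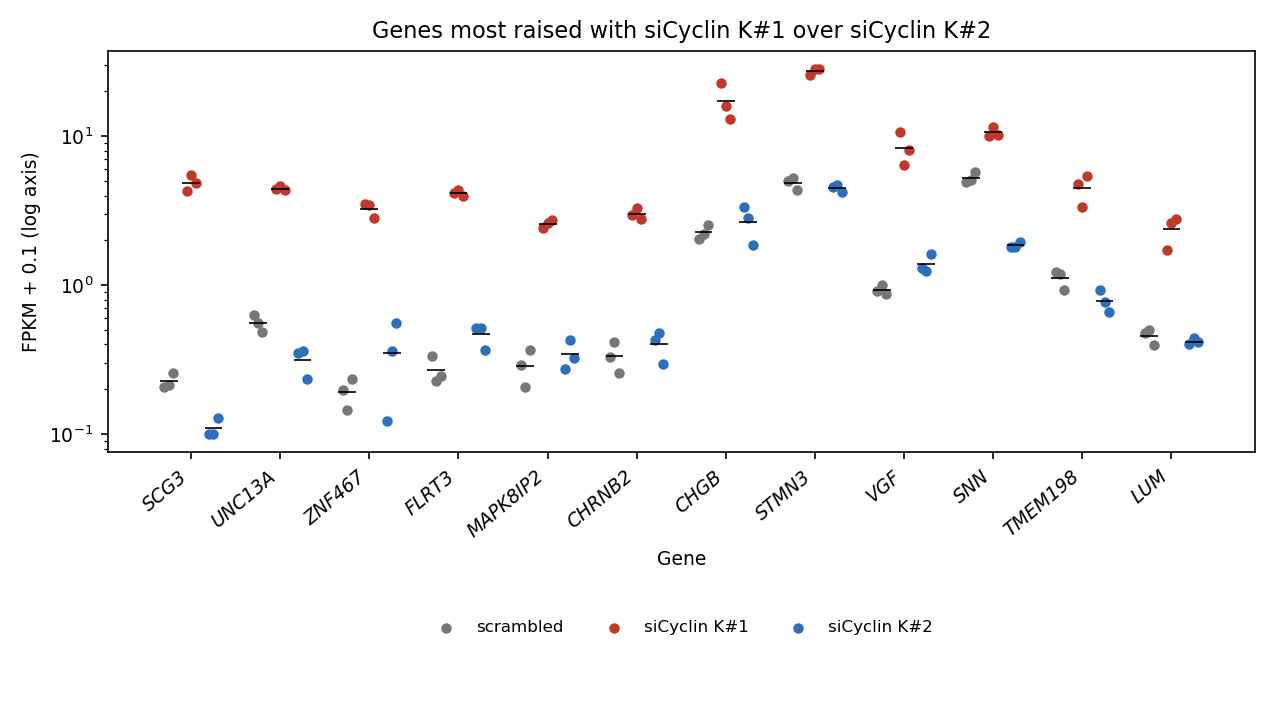
Dots show FPKM + 0.1 on a log axis in each of the 9 libraries for the 12 called genes with the largest rise, with bars at the mean of each group. For all 12 genes the 3 siCyclin K#1 libraries (red) lie above the 3 siCyclin K#2 libraries (blue), as the choice of genes required. STMN3 lies at 25.8 to 28.2 against 4.15 to 4.63, and the scrambled libraries are in grey.

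A list of 45 genes of secretory granules and synapses was written after the values were seen, and it is a description with no weight as a test. Of 28 that passed the filter on low values, 17 were higher and 3 lower with siCyclin K#1 at an adjusted p under 0.05. Over all genes tested the shares were 17.1% and 12.3%, and 1.53% were called. The median difference was 1.01, where the median of all genes tested was 0.08. The filter asks for 3 libraries, so a gene can pass it through the siCyclin K#1 libraries alone, which favours members that are high there. A further 6 were below the filter, 6 were measured only in features joined with another gene, and the rest had no row of their own. CHGA (4.35 against 0.702 FPKM on average), SNAP25 (5.30 against 0.982), SYP (10.5 against 2.05) and SCAMP5 (14.2 against 2.78), all parts of granules or synaptic vesicles, were among the 11 that were called. CPLX2, a regulator of vesicle fusion, had 95.7 FPKM with siCyclin K#1 and 35.2 with siCyclin K#2, a smaller fold at a higher level. Among the genes that were lower with siCyclin K#1 were RAB3B (difference -0.81) and SYTL2 (-0.36).

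REST is a repressor that is known to keep neuronal genes silent in other cells, by binding the RE1 element and recruiting corepressors such as CoREST, encoded by RCOR1. In a list of REST and its corepressors, also written after the values were seen, siCyclin K#1 gave the higher level for 7 of 18 genes and the lower level for 4, and the 7 became 4 without the third siCyclin K#1 library. REST (difference -0.94, SE 0.10, adjusted p = 1.5e-04) had 4.03 ± 0.602 FPKM (SD, n = 3) with siCyclin K#1, 7.76 ± 0.154 with siCyclin K#2 and 6.11 with scrambled siRNA. RCOR1 (difference -1.46, SE 0.05, adjusted p = 4.3e-07) had 5.24 ± 0.146, 14.6 ± 0.372 and 14.3. Both were lower in every siCyclin K#1 library than in every siCyclin K#2 library, while RCOR2 (difference 1.19) and EHMT2 (0.65) were higher and KDM1A (-0.02), the demethylase of the complex, did not pass the test.

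The RE1 element has the parts TTCAGCACC and GGACAG. They were searched for on both strands in 35116 RefSeq promoters of GRCh38, from 250 bases before to 50 after the start, with 2 to 12 bases allowed between the parts. TTCAGCACC alone was in 132 promoters (0.376%) and both parts in 15 (0.0427%). Among 9557 tested genes with a promoter in the table, both parts were found for 4, which were SCG3, UNC13A, CKMT1A and CKMT1B. All of these were called as higher with siCyclin K#1. The parts were 8 bases apart in SCG3 and UNC13A and 7 in CKMT1A and CKMT1B, and none had the shortest gap searched, 2 bases. CKMT1A and CKMT1B encode the same mitochondrial creatine kinase from near-identical copies, so that their values (1.33 and 1.16 FPKM with siCyclin K#1, 0.219 and 0.229 with siCyclin K#2) may share reads. Of the called genes with a promoter entry, 5 of 86 higher ones and 0 of 49 lower ones held TTCAGCACC. These letters describe the promoters and show neither binding nor a cause, and the search was chosen after the values were seen. The matched stretches are printed with the capitals marking the parts, read along the strand that carries them.

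SCG3, chr15:51681511-51681540, GRCh38: TTCAGCACCcacagggcGGACAGcgctccc

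UNC13A, chr19:17688340-17688369, GRCh38: TTCAGCACCgggggcgcGGACAGcgcctga

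CKMT1A, chr15:43693611-43693640, GRCh38: TTCAGCACCaagtggaGGACAGcacccacg

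The genes most lowered with siCyclin K#1 were a more mixed set. CA9 (chromosome 9, 35673856 to 35681159), the carbonic anhydrase that hypoxia induces, had 1.04, 1.03 and 1.34 FPKM with siCyclin K#1 against 15.0, 16.6 and 16.3 for the other siRNA, on either side of 8.90, 10.5 and 9.25 with scrambled siRNA (difference -3.71, SE 0.11, adjusted p = 2.2e-07). IGFBP1, which binds insulin-like growth factors, had 7.59, 6.31 and 5.87 against 44.98, 59.3 and 45.8, with 12.3 for scrambled siRNA on average (difference -2.90, SE 0.13, adjusted p = 1.3e-06). EREG, a ligand of the EGF receptor, had 2.12, 2.48 and 2.21 against 13.3, 15.1 and 9.87, with 7.56 for scrambled siRNA (difference -2.42). These 3 genes were below the scrambled level with siCyclin K#1 and above it with siCyclin K#2.

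RNF182, a ubiquitin ligase, had 1.34, 1.84 and 1.48 FPKM against 10.3, 12.2 and 11.2, with a scrambled mean of 10.4 (difference -2.78, SE 0.11, adjusted p = 7.9e-07). RTN3, a reticulon that shapes the endoplasmic reticulum, had 2.85, 2.68 and 2.83 against 13.6, 12.9 and 23.5, with 15.9 (difference -2.48). RTN3P1, a processed pseudogene of RTN3 that may take reads from it, had 0.826, 0.314 and 0.213 against 2.41, 2.24 and 3.27 (difference -2.45). In both the siCyclin K#2 libraries were uneven, and in both the groups were clear of each other, as the choice of genes required.

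The feature that joins ATP5MD, a subunit of the mitochondrial ATP synthase, with MIR1307 had 3.89, 4.69 and 3.96 FPKM against 53.8, 52.5 and 51.9, with 59.0 for scrambled siRNA (difference -3.63, SE 0.07, adjusted p = 6.1e-08), and its value cannot be divided between the genes. F2RL1, a protease-activated receptor, had 21.2, 21.6 and 22.2 against 105, 104 and 106, with 127 (difference -2.27, SE 0.03, adjusted p = 2.4e-09). H2AFV, a variant histone H2A, had 4.88, 6.27 and 6.45 against 31.7, 22.9 and 29.9 (difference -2.24). NDUFA5, a subunit of respiratory complex I, had 0.706, 0.687 and 0.761 against 3.81, 3.59 and 3.92 (difference -2.24). Of the 12, F2RL1 had the smallest standard error.

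GLE1, needed for the export of mRNA from the nucleus, had 2.34, 2.91 and 2.22 FPKM against 11.4, 12.3 and 13.1, on either side of a scrambled mean of 4.49 (difference -2.27). PHLDA2, an imprinted growth regulator, had 11.8, 7.42 and 6.20 against 34.1, 47.7 and 42.1, with 61.3 for scrambled siRNA (difference -2.31).

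**Figure D3:**
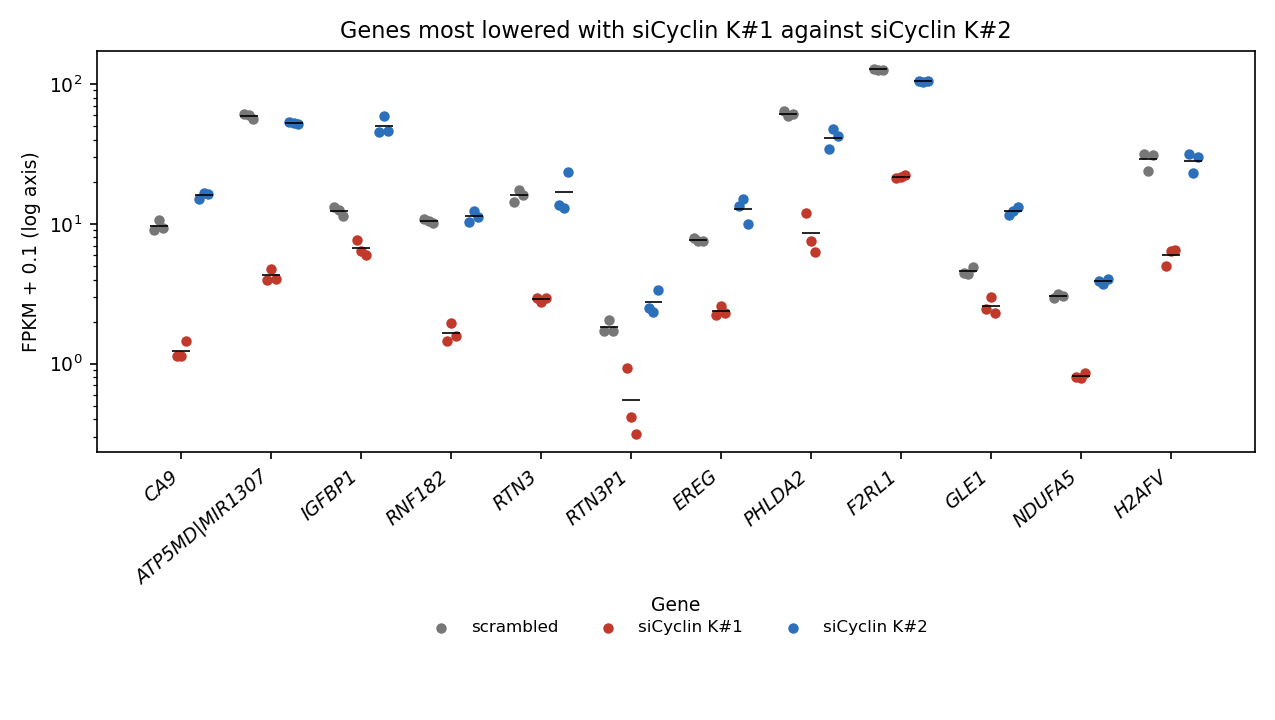
Dots show FPKM + 0.1 on a log axis in each of the 9 libraries for the 12 called features with the largest fall, with bars at the mean of each group. The siCyclin K#1 libraries (red) lie below the siCyclin K#2 libraries (blue) in all 12, as the choice of features required. CA9, IGFBP1, RTN3P1, EREG, GLE1 and NDUFA5 have their siCyclin K#2 libraries above the scrambled libraries (grey).

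Matches to the seed of siCyclin K#1 were common among the genes that were lower with siCyclin K#1. Of the called genes with a mean of at least 1 FPKM and an annotated 3′ UTR, 26 of 49 lower genes (53.1%) and 1 of 55 higher genes (1.82%, EPHA5) held GTGATAA in the longest annotated 3′ UTR, where 10.97% of all 9229 such genes did. For TACAGGT, the match to the seed of siCyclin K#2, the counts were 10 of 49 (20.4%) and 2 of 55 (3.64%), where 13.9% of all such genes held it. GTGATAA was found in RNF182, RTN3, EREG, F2RL1, GLE1 and NDUFA5, and not in CA9, IGFBP1, PHLDA2 or H2AFV. None of the 12 most raised genes held it. Windows of the 3′ UTRs of these genes and of REST and RCOR1 are shown because they carry the letters on which the groups differ, with the match in capitals and positions on GRCh38.

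RNF182, chr6:13979808-13979835, plus strand: tataatgtctacaGTGATAAacttgtgt

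RTN3, chr11:63758760-63758787, plus strand: cttataggtgataGTGATAAttcctgat

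EREG, chr4:74385206-74385233, plus strand: gttcctcaaatcaGTGATAAttggtttg

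F2RL1, chr5:76834613-76834640, plus strand: cactccagcttggGTGATAAaataaaat

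GLE1, chr9:128541415-128541442, plus strand: gttttttgcaaaaGTGATAAaaggtctt

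NDUFA5, chr7:123541659-123541686, minus strand: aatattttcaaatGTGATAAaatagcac

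REST, chr4:56934796-56934823, plus strand: tgtttagtaattaGTGATAAacttgaaa

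RCOR1, chr14:102726977-102727004, plus strand: gacaaccacctaaGTGATAAtacgcttt

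NDUFA5 held 3 matches, F2RL1, GLE1, REST and RCOR1 held 2 each, and RNF182, RTN3 and EREG held 1. ATP5MD held 1 in its 3′ UTR of 129 bases, in a transcript of the joined feature.

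Over all genes with a mean of at least 1 FPKM and a 3′ UTR, the difference between the knockdowns went with the presence of a GTGATAA match. It changed little with the number of matches, which also rises with 3′ UTR length. The median length was 3040, 4082 and 6322 bases for genes with 1, 2 and 3 or more matches. The number of matches was not compared among genes of like length. The median difference was 0.05 for 8217 genes with 0 matches, -0.16 for 879 genes with 1, -0.17 for 111 genes with 2 and -0.20 for 22 genes with 3 or more. Of genes with a match, 41.0% were lower and 14.1% higher with siCyclin K#1 at an adjusted p under 0.05, against 19.2% and 27.2% of genes without. Where a match was followed by A, the base that favours Argonaute binding, the median was -0.21 (398 genes), and where no match was, it was -0.12 (614 genes). Against scrambled siRNA, the genes with a match had a median of -0.17 with siCyclin K#1 and 0.04 with siCyclin K#2, and the genes without had 0.13 and 0.07. All of these are descriptions with no test, since genes are not replicates.

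The same count for TACAGGT showed no such shift. The median difference was 0.03 for 7943 genes without a match, 0.04 for 988 genes with 1, 0.06 for 222 with 2 and -0.02 for 76 with 3 or more. The gap between genes with and without a match was -0.21 for GTGATAA and 0.01 for TACAGGT. When each of the 6 libraries was set against the mean of the other siRNA, the gap for GTGATAA lay between -0.234 and -0.192, and that for TACAGGT between -0.00783 and 0.0211.

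Genes that hold a match also have longer 3′ UTRs, with a median of 3251 bases with GTGATAA and 1276 without. With the genes divided by 3′ UTR length into 4 sets of nearly equal size, the medians with and without a match were -0.42 and -0.00 in the set with the shortest UTRs (42 and 2266 genes) and -0.08 and 0.10 in the set with the longest (584 and 1721 genes). In between they were -0.30 and 0.05, and -0.20 and 0.07. The gap was present in each set and was widest in the shortest UTRs. In genes with no match in the 3′ UTR, the median was -0.08 for 507 genes with GTGATAA in the coding region and 0.06 for 7710 genes without. Of the 49 genes called lower with a mean of at least 1 FPKM and an annotated 3′ UTR, 23 held no match there.

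**Figure D4:**
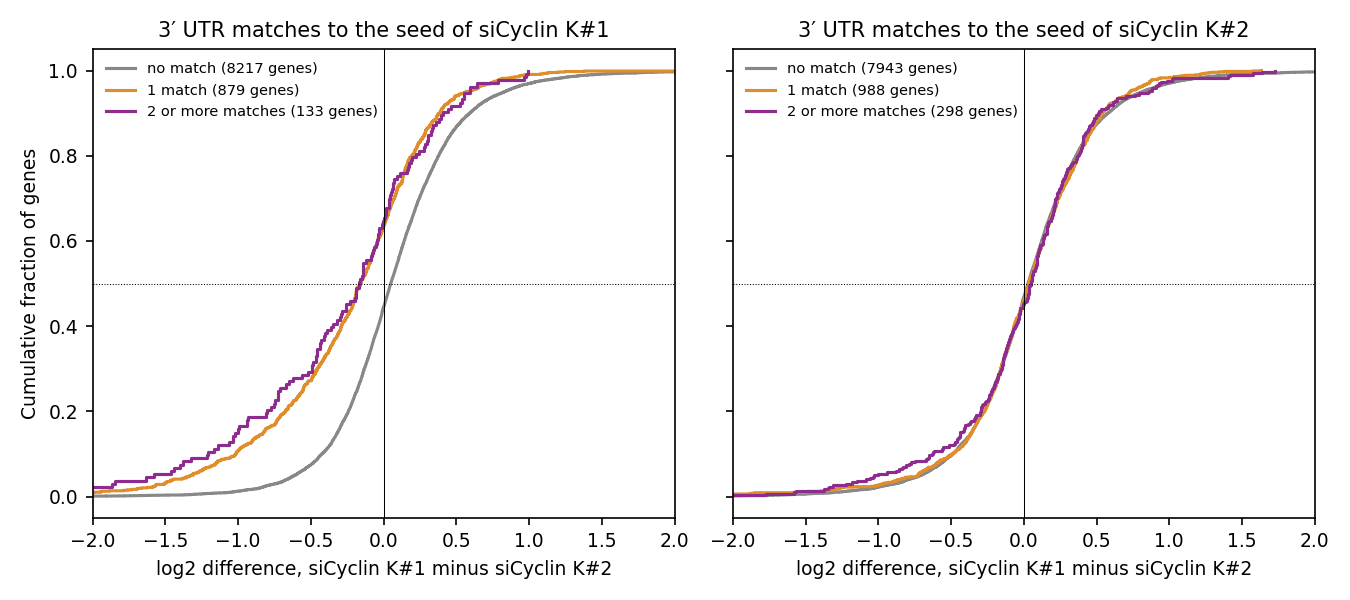
Each curve gives the cumulative fraction of genes (vertical axis) against the log2 difference, siCyclin K#1 minus siCyclin K#2, for genes with 0, 1 or at least 2 matches to the seed of siCyclin K#1 (left, GTGATAA) or of siCyclin K#2 (right, TACAGGT) in the 3′ UTR. On the left the curves with matches are shifted to lower values, with medians of -0.16 for 1 match and 0.05 for 0, and on the right the curves run together.

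Genes of cell division were mostly below their siCyclin K#2 levels in the siCyclin K#1 libraries, by modest amounts. Of 74 mitosis genes, 49 were lower and 1 (CDCA8) higher at an adjusted p under 0.05, with a median difference of -0.36, and 0 were called at a fold over 3. UBE2S, an enzyme of the anaphase-promoting complex, had 52.5 ± 8.56 FPKM (SD, n = 3) against 130 ± 11.9 (difference -1.31), and CDC20, an activator of that complex, had 27.5 ± 0.584 against 49.0 ± 1.22 (difference -0.83). CDC25A, a phosphatase that activates cyclin-dependent kinases, had 6.48 ± 0.266 against 11.8 ± 0.502 (difference -0.85). In bulk RNA, fewer dividing cells and less of these mRNAs per cell cannot be told apart. Of the 74 genes, 5 held GTGATAA in the 3′ UTR, UBE2S among them. Of all 9229 genes with a mean of at least 1 FPKM and a 3′ UTR, 10.97% held it. In this and the later lists, any part of the matches in the differences was not tested.

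DNA replication followed the same direction. Of 53 replication genes, 29 were lower and 1 (LIG1) higher, with a median of -0.21. DBF4, the activator of the replication kinase CDC7, had 1.95 ± 0.138 FPKM against 4.54 ± 0.216 (SD, n = 3, difference -1.18), and RRM1, the large subunit of ribonucleotide reductase, had 30.4 ± 1.61 against 58.2 ± 3.03 (difference -0.93). TK1 (difference -0.83) and RFC4 (-0.90) were lower too. DBF4 and RRM1 held a GTGATAA match in the 3′ UTR, and TK1 and RFC4 held none. Of 24 G1 cyclins, their kinases and inhibitors, 8 were lower and 5 higher. CCNE2 had 1.08 ± 0.119 against 3.48 ± 0.577 (difference -1.59) and held a GTGATAA match in the 3′ UTR. The inhibitor gene CDKN1C had a difference of 1.09.

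Genes of homologous recombination and the Fanconi pathway, which the Cyclin K complexes are known to sustain, were lower with siCyclin K#1 for 24 of 48 and higher for 6, with a median of -0.24, and the 6 became 3 without the second siCyclin K#1 library. RBBP8, which starts the resection of broken ends, had 3.21 ± 0.153 FPKM against 9.65 ± 0.880 (SD, n = 3, difference -1.56), with 8.53 for scrambled siRNA. RIF1 (10.7 ± 0.186 against 18.6 ± 0.637, difference -0.79), which limits resection, had a scrambled level of 15.7. H2AFX, the histone that is phosphorylated at breaks, had 63.8 ± 6.20 against 106 ± 0.503, both below a scrambled level of 168 (difference -0.73). RBBP8, RIF1 and H2AFX held no GTGATAA match in the 3′ UTR. The study's discussion cites ATR and FANCI among genes that Cyclin K controls with CDK12 and CDK13. ATR (difference 0.30) was among the higher genes, and FANCI (-0.07) did not pass the test.

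The p53 target genes leaned the other way, with 20 of 36 higher and 6 lower with siCyclin K#1 and a median of 0.33. SESN2, a stress-induced inhibitor of mTORC1 signalling, had 14.2 ± 0.307 FPKM against 4.62 ± 0.455 (SD, n = 3, difference 1.60), and BBC3, the pro-apoptotic protein PUMA, had 7.95 ± 1.52 against 2.92 ± 0.122 (difference 1.40). CDKN1A, the cell cycle inhibitor p21, had a difference of 1.35. GDF15, a secreted stress protein that p53 also induces, was lower with siCyclin K#1 (21.3 ± 0.853 against 55.9 ± 6.06, difference -1.38), and so were the death receptor genes TNFRSF10B (-0.90) and TNFRSF10A (-0.56). Of 22 BCL2 family and caspase genes, 7 were higher and 7 lower.

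Many glycolytic enzymes and part of the hypoxia genes were lower with siCyclin K#1. Of 31 hypoxia genes 15 were lower, 1 (EFNA1) was higher and 15 did not pass the test, with a median of -0.30. Besides CA9, they included STC1 (1.19 ± 0.145 FPKM against 5.81 ± 1.24, SD, n = 3, difference -2.18), STC2 (-1.36), NDRG1 (-1.16) and VEGFA (-0.72). EFNA1, an ephrin ligand, had a difference of 1.54. STC1 and STC2 held GTGATAA in the 3′ UTR, and CA9 and VEGFA did not. Of 19 genes of glycolysis and of the pyruvate dehydrogenase complex 14 were lower and 0 higher, with a median of -0.24. HK2, which phosphorylates glucose, had 1.17 ± 0.173 against 3.07 ± 0.397 (difference -1.32), and LDHA, which makes lactate, had 176 ± 23.8 against 347 ± 59.3 (difference -0.98), with scrambled levels of 2.15 and 372.

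Growth factor signalling and the Hippo pathway showed members lower with siCyclin K#1. In a list of 24 genes for MAPK feedback and EGF receptor ligands 10 were lower and 4 higher, with a median of -0.34. Among the lower genes were EPHA2, which encodes an ephrin receptor (9.45 ± 0.108 FPKM against 40.3 ± 3.19, SD, n = 3, difference -2.08), and the phosphatase gene DUSP4 (-1.63). Of 30 Hippo components and YAP and TEAD targets 15 were lower and 6 higher, with a median of -0.29. WWTR1, which encodes the coactivator TAZ, had 13.04 ± 0.296 against 39.6 ± 1.57 (difference -1.59), its partner TEAD1 had 10.6 ± 1.78 against 25.1 ± 3.04 (-1.24), and their target ANKRD1 had 3.29 ± 0.415 against 11.5 ± 0.864 (-1.78). FOSL1, an AP-1 subunit, was also lower (difference -1.93), and BTG2, an antiproliferative immediate early gene, was higher (2.04), within a list of 27 AP-1 and immediate early genes with 6 higher and 5 lower.

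Genes of adhesion, matrix and the cytoskeleton leaned to siCyclin K#1. Of 24 catenins, cadherins and protocadherins 10 were higher and 0 lower, with a median of 0.44, and a further 9 were measured only in joined features. JUP, which encodes plakoglobin, had 21.5 ± 1.02 FPKM against 8.09 ± 0.669 (SD, n = 3, difference 1.40), and CDH1, which encodes E-cadherin, had 3.88 ± 0.970 against 1.71 ± 0.537 (1.15). With median-ratio rescaling 1 member of this list was lower. Of 31 actin cytoskeleton genes 17 were higher and 4 lower, of 30 integrin and laminin genes 14 and 3, and of 34 collagen genes 14 and 7. ACTA2, smooth muscle actin, had 5.09 ± 0.112 against 1.41 ± 0.0436 (difference 1.78), ITGA10 had 7.78 ± 1.01 against 1.66 ± 0.178 (2.16), and COL13A1 (-1.73) and PLOD3 (-1.45) were lower.

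Signalling through Wnt and Notch showed more members higher with siCyclin K#1. Of 54 Wnt ligands, receptors and components 20 were higher and 4 lower, with a median of 0.10, close to the 0.08 of all genes. The 4 lower genes became 2 without any of the siCyclin K#2 libraries in turn. SFRP4, a secreted Wnt antagonist, had 3.38 ± 0.223 FPKM against 1.04 ± 0.223 (SD, n = 3, difference 1.62), and FZD7, a Wnt receptor, had 4.28 ± 0.335 against 7.88 ± 0.170 (-0.87). Of 23 β-catenin target genes 3 were higher and 7 lower. Of 30 Notch genes 13 were higher and 2 lower, with NOTCH3 at a difference of 1.16 and RBPJ, the DNA-binding partner of Notch, at -1.38. Of 51 TGF-β genes 14 were higher and 6 lower, with the receptor gene TGFBR2 (difference 0.88) among the higher ones.

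Immune and inflammatory genes moved both ways. Of 40 genes of the interferon response and the sensing of double-stranded RNA 17 were higher and 6 lower with siCyclin K#1, with a median of 0.16 and 0 called (the 6 became 3 without the third siCyclin K#2 library), and among the higher genes were TLR3 (2.47 ± 0.394 FPKM against 1.10 ± 0.101, SD, n = 3, difference 1.09), GBP1 (1.09) and IFI44L (1.02). Of 31 chemokine, cytokine and NF-κB genes 8 were higher and 11 lower, with IL11 (3.08 ± 0.356 against 13.1 ± 1.40, difference -2.05) and CXCL5 (162 ± 13.8 against 560 ± 77.1, -1.79) both below their scrambled levels of 53.1 and 1323 with either siRNA. The 8 higher genes of this list became 4 under quantile normalization and 5 without the third library of either siRNA. Of 13 receptor and feedback genes of IL6 signalling 9 were higher and 2 lower, with JAK1 at 97.0 ± 3.15 against 55.5 ± 2.06 (difference 0.81). TAP1, a peptide transporter for HLA class I with a GTGATAA match in its 3′ UTR, was lower (-1.49). It belonged to a list of 14 antigen presentation genes with 4 higher and 2 lower. The 4 became 1 or 2 without siCyclin K#1 replicate 1 or 3 or siCyclin K#2 replicate 2 or 3.

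Stress and metabolic lists held large differences in both directions. Of 32 NRF2 targets 12 were higher and 9 lower, with HMOX1, which breaks down haem, at 68.3 ± 3.38 FPKM against 24.4 ± 1.24 (SD, n = 3, difference 1.48) and the cystine transporter gene SLC7A11 at 19.3 ± 0.408 against 42.9 ± 1.21 (-1.15). Of 41 genes of cholesterol and fatty acid synthesis 19 were higher and 7 lower, with ACSL4, which activates arachidonic acid, at 4.85 ± 0.229 against 23.1 ± 0.719 (difference -2.23) and the regulator gene SREBF2 at 1.06. Of 41 genes of ATF4 and endoplasmic reticulum stress 10 were higher and 17 lower. Of 11 aldehyde dehydrogenase genes 6 were higher and 1 lower, led by ALDH1L2 (0.79) and ALDH3A1 (0.77). Of the genes named as lower in these lists, SLC7A11 and ACSL4 held GTGATAA in the 3′ UTR.

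Of 38 splicing factor genes 5 were higher and 14 lower with a median of -0.13 (the 5 became 3 without the second siCyclin K#1 library and 2 without the third siCyclin K#2 library), and of 34 proteasome genes 3 and 14 with -0.12. Of 16 histone deacetylase and sirtuin genes 8 were higher and 1 lower with a median of 0.28, led by HDAC5 (11.1 ± 0.771 FPKM against 6.86 ± 0.0566, SD, n = 3, difference 0.68). The 8 became 4 without the first or the second siCyclin K#1 library and 5 without the second siCyclin K#2 library or with a replicate block. Of 49 nuclear genes of the respiratory chain 9 were higher and 9 lower. Of 56 cytosolic ribosomal protein genes 11 were higher and 16 lower, a split that turned to 18 and 8 under quantile normalization. Of 15 genes of RNA interference 0 were higher and 3 lower, namely the chaperone gene HSP90AA1 (222 ± 11.8 against 440 ± 14.8, difference -0.99), DGCR8 (-0.45) and DICER1 (-0.22). Of 16 common reference genes 5 were higher and 3 lower, among which YWHAZ (0.73) and HPRT1 (0.50) were higher and TFRC (-0.82) and TBP (-0.52) lower. Of 7 genes of the mitochondrial genome 3 were higher and 0 lower, which turned to 0 and 3 under quantile normalization.

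**Figure D5:**
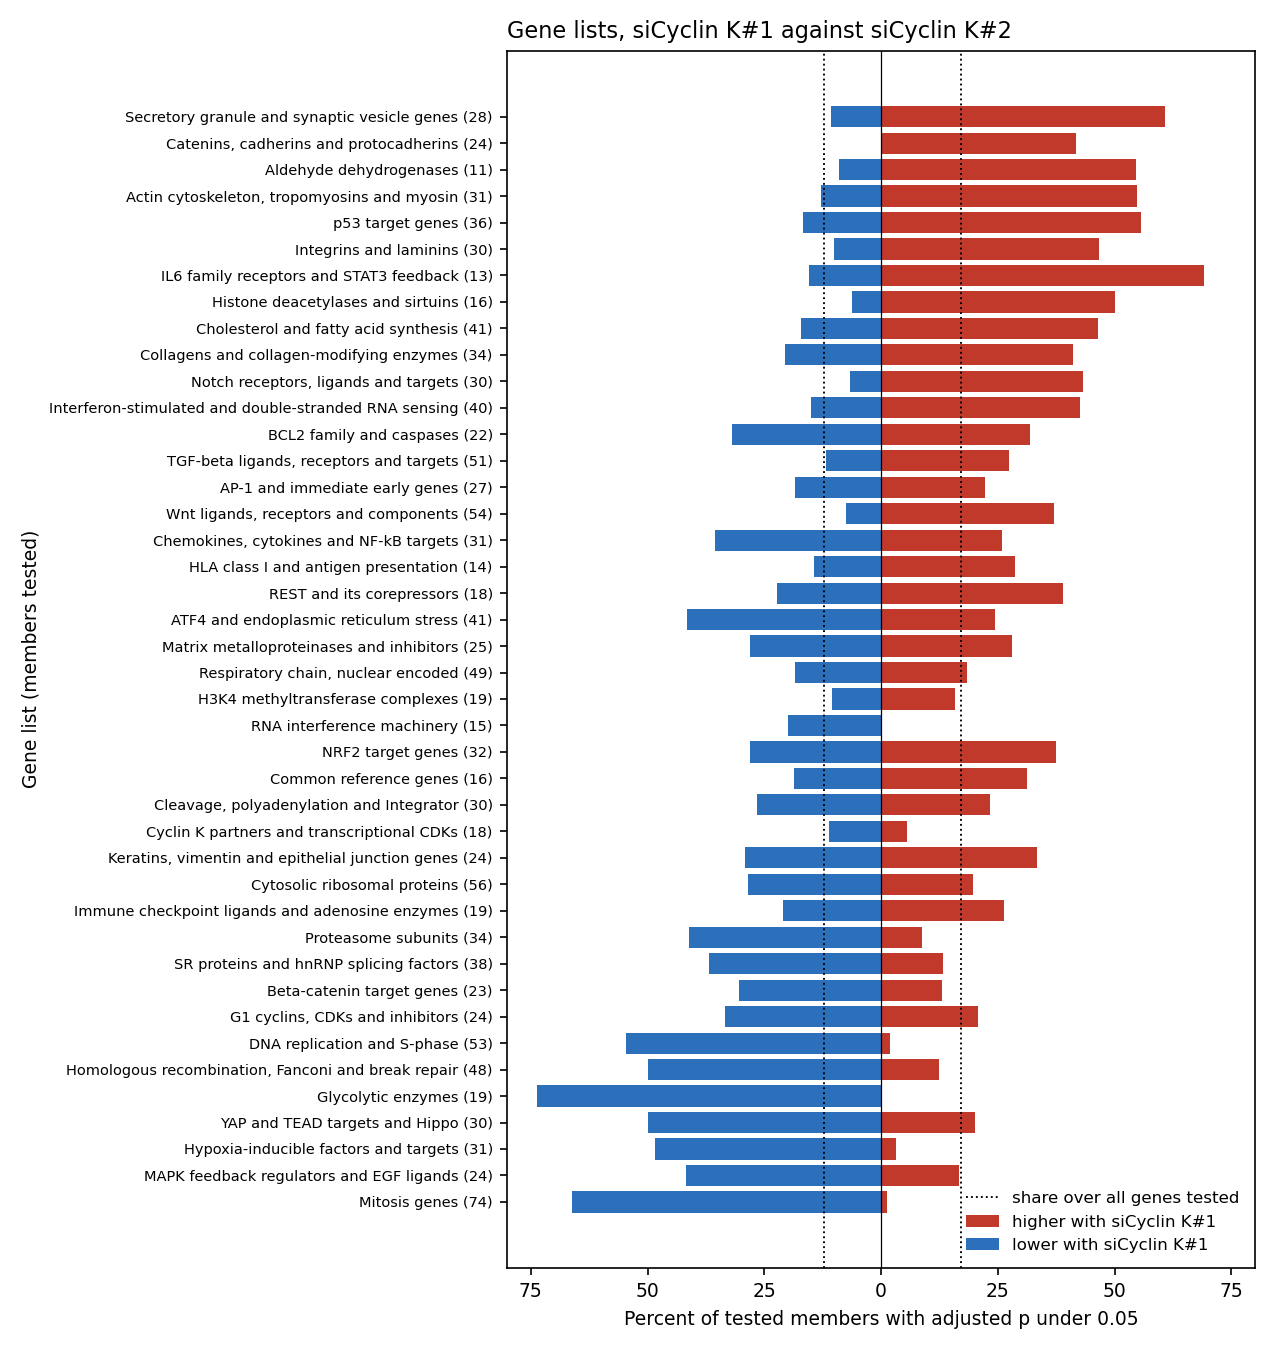
Bars give the percent of tested members of each gene list (number in brackets) that were higher (red, right) or lower (blue, left) with siCyclin K#1 at an adjusted p under 0.05, with lists of at least 10 tested members ordered by median difference (the secretory granule and REST lists were written after the values were seen). Dotted lines mark the shares over all genes tested, 17.1% and 12.3%. Over 9229 genes with a mean of at least 1 FPKM and an annotated 3′ UTR, the shares were 25.7% and 21.6%. The mitosis list ends the order at 66.2% lower and 1.35% higher.

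The remaining lists were balanced or small. Of 25 metalloproteinase genes 7 were higher and 7 lower, led by MMP24 (1.92) and ADAMTS15 (1.90), of 24 keratin and junction genes 8 and 7, with the junction gene CLDN2 at -1.50, and of 19 checkpoint and adenosine genes 5 and 4, with ADA at 1.26 and NT5E at -1.08. Of 30 cleavage and polyadenylation genes 7 were higher and 8 lower, and the 7 became 4 without the second siCyclin K#1 library and the 8 became 4 without the third siCyclin K#2 library. Of 19 genes of H3K4 methyltransferase complexes 3 were higher and 2 lower. Of 9 lung epithelial genes that passed the filter FOXA1 (1.27), a pioneer factor, was higher and 1 was lower.

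The genes called higher were mostly weakly expressed, and the called genes were of many kinds. The median of the mean level was 0.418 FPKM for genes called higher, 1.20 for genes called lower and 1.36 for all genes tested. Protein-coding genes made up 55.3% of the called genes and 54.5% of all tested, and genes of small RNAs made up 10.2% of the called genes and 4.86% of all tested, with 3.23% of the 1023 small RNA genes called. Genes of small RNAs are often shorter than a sequenced fragment, so that their FPKM is uncertain.

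Long genes leaned slightly to siCyclin K#1. Among protein-coding genes with a mean of at least 1 FPKM, the median difference was 0.01 for 1608 genes under 10 kb, 0.02 for 2626 genes of 10 to 30 kb, 0.02 for 3206 genes of 30 to 100 kb, 0.09 for 1389 genes of 100 to 250 kb and 0.12 for 419 genes over 250 kb. Of the 419 genes over 250 kb, 146 were higher and 88 lower with siCyclin K#1 at an adjusted p under 0.05. Over 9229 genes with a mean of at least 1 FPKM and a 3′ UTR, 25.7% were higher and 21.6% lower. The medians by length are given for the FPKM as deposited only. With median-ratio rescaling the median of all genes tested went from 0.08 to 0.02.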

How the data were processed

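RNA sequencing of 9 A549 libraries was analysed, grouped by the sample titles into 3 groups of 3 (siCyclin K#1, siCyclin K#2, scrambled). The authors deposited FPKM per gene or locus, which the submitters' processing notes credit to StringTie 1.3.3b. The aligner and its settings are not given in the sources used here. Of 56252 features, 25125 had no reference gene and were dropped, rows of the same gene were summed, and 1344 features that join several genes were kept as joined.

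Genes with at least 0.1 FPKM in at least 3 libraries were tested as log2(FPKM + 0.1) with limma 3.58.1 (R 4.3.3, moderated with trend), in which all 9 libraries shared an estimate of the spread. A gene was called at a fold over 3 with an unadjusted p under 0.01. Adjusted p-values are Benjamini-Hochberg values over 21048 genes. The code was tested on simulated data. The smallest steps between low FPKM values gave the read totals, with at least 97.1% of low values within 0.05 reads of a whole number. Replicate libraries differed by more than sampling noise (chi-square per degree of freedom 19.9 to 27.3), so that none was counted as a duplicate.

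Named genes were CCNK, the 12 largest differences each way among called genes with a mean of at least 1 FPKM and no overlap, the 5 largest that lay on opposite sides of the scrambled level, and up to 4 members of each gene list. The members and lists were chosen with earlier results of these data known. CDCA8, LIG1, CDKN1A, CDKN1C, NDRG1, TNFRSF10A, TNFRSF10B, EPHA5, GBP1, MUC5AC, ABCA3, ATR and FANCI were named after their values were seen. So were the cell type markers' levels and members of the lists written later. Seed matches were counted in the longest 3′ UTR of GENCODE 29, and promoters came from RefSeq (GRCh38.p14). Alternatives were other added constants, filters, scalings, thresholds, moderation without trend, 3′ UTR choice, a replicate block, the 6 Cyclin K siRNA libraries alone, and leaving out each library. Python 3.11.15 and scipy 1.17.1 were used.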

Additional observations from a re-analysis of the deposited data

Results flagged for a closer look

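Of the genes with a mean of at least 1 FPKM, 365 lay on opposite sides of the scrambled level with the 2 siRNAs, with an adjusted p under 0.05 in limma for each siRNA against scrambled siRNA. Both comparisons share the 3 scrambled libraries. The 5 with the largest direct difference between the siRNAs are given here, each tested directly in the same fit.

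SCG3 was above scrambled siRNA by 4.43 with siCyclin K#1 (adjusted p = 3.0e-07) and at -1.05 with siCyclin K#2 (adjusted p = 0.00225), a direct difference of 5.48 that depends on the added constant, since the siCyclin K#2 libraries held 0, 0 and 3 reads. UNC13A had 3.00 and -0.84, a direct difference of 3.85. SNN had 1.01 and -1.49, a direct difference of 2.51. In these 3 genes every siCyclin K#1 library was above, and every siCyclin K#2 library below, the 3 scrambled libraries.

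CA9 and IGFBP1 were placed the other way. CA9 had -2.97 with siCyclin K#1 and 0.74 with siCyclin K#2, a direct difference of -3.71. IGFBP1 had -0.90 and 2.00, a direct difference of -2.90. Every siCyclin K#1 library was below, and every siCyclin K#2 library above, the scrambled libraries in both. Groups of 3 libraries were not searched for a library that stands apart.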

How the results depend on the processing

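The count of 322 called genes (204 higher, 118 lower) was 122 (60, 62) with a mean of at least 1 FPKM, 75 (33, 42) with 0.5 added, 57 (25, 32) with 1 added, 830 (519, 311) over 40589 features with loci that have no reference gene, and 1129 (721, 408) at a fold over 2. The first follows from fewer genes tested, and the last from the lower fold. The protein-coding share of called genes, 55.3%, was 86.1%, 85.3%, 91.2%, 21.4% and 65.5% in that order. The share of calls that were higher, 63.4%, was 47.5% under quantile normalization (301 called) and 57.4% under median-ratio rescaling (312 called).

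The gap for GTGATAA (-0.21) was -0.13 with no filter, -0.19 and -0.17 with 0.5 and 1 added, -0.23 under quantile normalization and -0.26 with the shortest 3′ UTR. The gap for TACAGGT (0.01) was -0.0061, -0.017 and 0.033 with no filter, quantile normalization and the shortest 3′ UTR. The cause was not tested.

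Leaving out each library gave 309 to 357 called genes (195 to 238 higher, 114 to 133 lower), 5162 to 6006 genes at an adjusted p under 0.05, gaps of -0.23 to -0.19 and 0.0016 to 0.015, and protein-coding shares of 51.5 to 57.9%. The CCNK difference ranged from -0.12 to 0.016 and changed sign without siCyclin K#1 replicate 3 (0.016) or siCyclin K#2 replicate 2 (0.0012).

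Replicate numbers did not pair the libraries, since same-numbered deviations correlated at -0.0817 to 0.0352, and a replicate block gave 314 called genes. Of 3739 values under alternatives of the 187 named genes other than CCNK, 77, from 13 genes, lost their call and 0 changed direction. With about 31333749 to 33767961 reads a library, folds of genes under 1 FPKM, 200 of the 322 called, are the least certain.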
